A study of Mus musculus with 9 samples.

Results

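The 9 genes described here, Pax2, Pax8, Dlx5, Dlx6, Gbx2, Hmx1, Hmx2, Hmx3 and Tbx1, encode transcription factors that pattern the otic placode and the otic vesicle. Open chromatin was measured in cells of the embryonic mouse cochlear duct by ATAC-seq, which sequences the DNA that a transposase can reach. A peak was given to a gene when its summit lay nearest, within 500 kb, to a start site of that gene among protein-coding transcripts in mm9. Of 286921 peaks in the 9 deposited lists, 157 belonged to the 9 genes. Peaks of all lists that lay within 100 bp of each other were joined into 69354 regions, of which 43 belonged to the 9 genes.

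The cells came from embryos heterozygous for a Sox2-EGFP knock-in allele, in which the EGFP reporter is driven from the Sox2 locus, and were sorted into bright Sox2-EGFP+ and dark Sox2-EGFP- cells after the spiral ganglion had been dissected away. Each library was a pool of ducts from 1 litter. Each of the 3 stages, E12, E14.5 and E16, had 2 Sox2-EGFP+ lists. For Sox2-EGFP- cells there was 1 list from E14.5 and 2 from E16, and E12 Sox2-EGFP- cells were not analysed here. Peaks in Sox2-EGFP+ lists numbered 13817 and 7577 for E12 replicates 1 and 2, 66332 and 22962 for E14.5, and 39314 and 65870 for E16. Those in Sox2-EGFP- lists numbered 23302 for E14.5, and 23848 and 23899 for E16. Sox2 itself had 34 regions, and 30 of them lacked a Sox2-EGFP- peak, beside 69.5% of all Sox2-EGFP+ regions. Lists were grouped by their titles. For 3 of the 4 E16 libraries (Sox2-EGFP+ replicate 2 and both Sox2-EGFP- replicates) a separate cell type tag contradicts the title, so the main counts are also given without them. The Sox2-EGFP- side of E16 rests on these libraries in full. Prosensory markers (Sox2 and 7 others) had 16.4 peaks per 10000 in E16 Sox2-EGFP+ replicate 2, and 7.56 and 9.22 in the E16 Sox2-EGFP- lists, the order that the titles give. Both E16 libraries numbered 1 were sequenced in another batch than the other libraries.

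The otic placode is set apart from the head ectoderm by Pax2, Pax8 and other factors, and closes into a vesicle whose dorsal part forms the vestibular organs and whose ventral part grows out as the cochlear duct. Dlx5, Dlx6, Gbx2, Hmx2 and Hmx3 are known for dorsal and vestibular patterning, and Tbx1 for the border between neurogenic and non-neurogenic otic epithelium. The lists bear on which of these loci kept an accessible site in Sox2-EGFP+ cells of the duct, the population that includes the prosensory domain, between E12 and E16.

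The sequences of the regions away from start sites show what these sites are made of. For each gene, the region farther than 1 kb from a start site with peaks in the most Sox2-EGFP+ lists is shown, with ties settled by the mean percentile of peak height within the lists. Each line holds 200 bases of mm9 around the summit, on the plus strand, 5′ to 3′, with CG pairs in capitals. Hmx2 had no region of this kind.
Pax2, chr19:44794764-44794963: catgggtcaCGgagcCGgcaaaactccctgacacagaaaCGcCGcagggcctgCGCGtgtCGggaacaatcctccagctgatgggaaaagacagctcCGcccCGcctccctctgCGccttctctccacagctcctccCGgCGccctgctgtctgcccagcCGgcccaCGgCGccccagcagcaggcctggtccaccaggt
Pax8, chr2:24376950-24377149: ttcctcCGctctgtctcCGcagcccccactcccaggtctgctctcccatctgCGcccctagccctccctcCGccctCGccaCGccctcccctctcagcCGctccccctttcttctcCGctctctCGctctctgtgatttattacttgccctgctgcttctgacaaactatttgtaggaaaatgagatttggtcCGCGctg
Dlx5, chr6:6865270-6865469: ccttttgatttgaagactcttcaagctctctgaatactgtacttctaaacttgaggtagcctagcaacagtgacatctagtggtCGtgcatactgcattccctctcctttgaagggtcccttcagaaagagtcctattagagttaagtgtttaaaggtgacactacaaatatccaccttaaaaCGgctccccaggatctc
Dlx6, chr6:6765458-6765657: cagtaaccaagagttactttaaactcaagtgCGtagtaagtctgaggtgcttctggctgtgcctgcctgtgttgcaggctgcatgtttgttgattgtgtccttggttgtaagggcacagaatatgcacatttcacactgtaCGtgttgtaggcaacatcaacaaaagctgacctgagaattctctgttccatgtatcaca
Gbx2, chr1:91865101-91865300: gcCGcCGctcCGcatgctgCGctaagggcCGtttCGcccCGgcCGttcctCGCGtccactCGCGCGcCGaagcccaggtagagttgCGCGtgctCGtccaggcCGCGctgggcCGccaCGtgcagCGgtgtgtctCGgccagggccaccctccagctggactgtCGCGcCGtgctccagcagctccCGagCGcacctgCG
Hmx1, chr5:35790677-35790876: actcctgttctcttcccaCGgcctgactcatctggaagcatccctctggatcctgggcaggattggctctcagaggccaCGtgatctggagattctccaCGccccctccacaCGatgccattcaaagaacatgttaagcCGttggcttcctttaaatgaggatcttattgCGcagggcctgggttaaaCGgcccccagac
Hmx3, chr7:138620254-138620453: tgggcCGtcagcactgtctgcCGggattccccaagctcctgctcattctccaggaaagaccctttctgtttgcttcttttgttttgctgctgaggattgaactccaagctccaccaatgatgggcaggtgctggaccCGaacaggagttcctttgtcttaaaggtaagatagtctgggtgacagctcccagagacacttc
Tbx1, chr16:18590635-18590834: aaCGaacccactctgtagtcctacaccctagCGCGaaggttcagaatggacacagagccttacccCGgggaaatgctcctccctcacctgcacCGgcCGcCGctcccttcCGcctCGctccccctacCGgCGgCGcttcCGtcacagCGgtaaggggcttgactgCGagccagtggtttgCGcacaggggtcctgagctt
The Pax2, Pax8, Dlx5, Dlx6, Hmx1, Hmx3 and Tbx1 windows were intergenic, and the Gbx2 window lay in a coding exon of Asb18, a neighbouring gene.

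These windows differed widely in CG pairs, from 29 in the Gbx2 window, 16 in that of Tbx1, 15 in that of Pax2 and 11 in that of Pax8 to 2 in each of the Dlx5 and Dlx6 windows. Over the 34 Sox2-EGFP+ regions of the 9 genes farther than 1 kb from a start site, the median was 9 CG pairs in 200 bases and the median GC content 61%, beside 3 CG pairs and 52% over all 50590 such regions. At least 8 CG pairs, a limit chosen after the values were seen, were held by 18 of the 34 regions and by 11.6% of all such regions. Start sites here are those of protein-coding transcripts, and 2 of the 18 lay within 1 kb of the start of another transcript, 76.8 kb downstream of Pax2 (0.788 kb from 1700039E22Rik) and 3.85 kb upstream of Tbx1 (0.119 kb from 4930588K23Rik). The 18 were 10 of 16 regions of Pax2, 3 of 4 of Gbx2, 3 of 4 of Tbx1, 1 of 3 of Hmx1 and the only region of Pax8, and none of the 3 of Dlx5, the 2 of Dlx6 or the 1 of Hmx3. Within 1 kb of a start site, the 7 regions of the genes had a median of 20 CG pairs, beside 17 over all 14859.

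**Figure D1:**
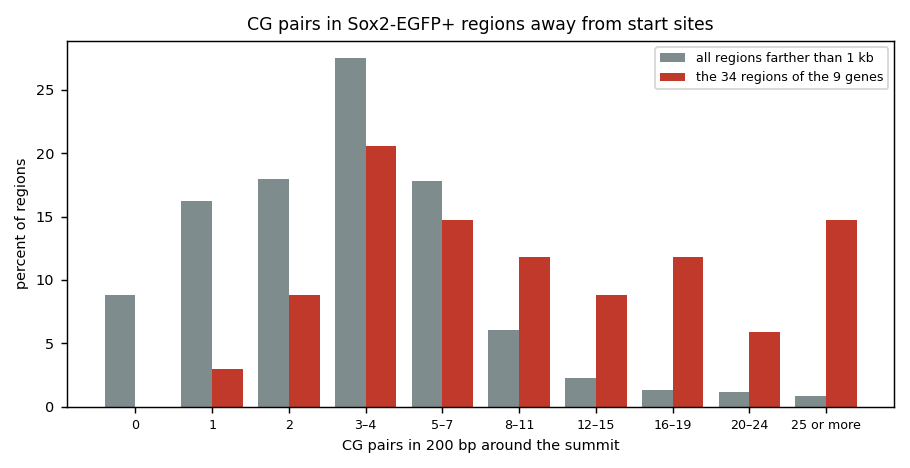
Share of Sox2-EGFP+ regions farther than 1 kb from a start site (vertical axis, percent) by the number of CG pairs in 200 bases around the summit (horizontal axis, in classes of unequal width), for all 50590 regions in grey and the 34 regions of the 9 genes in red. The red bars exceed the grey ones in every class from 8 pairs upward.

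Short motifs were searched on both strands of the same windows in the 41 Sox2-EGFP+ regions of the 9 genes. The Sox motif ACAANG occurred in 11 regions (26.8%), beside 41.2% of all Sox2-EGFP+ regions, and the Ctcf motif AGGNGGC in 16 (39%), beside 25.6%. The Pax motif GTCANGC occurred in 4 regions, among them the Hmx1 and Tbx1 windows shown above, beside 7.57% of all regions. Of the Hmx and Nkx motif, CAAGTG, 3 regions held a match, among them the Dlx6 window, beside 10.6% of all regions. The Gata motif AGATAA was in 2 regions (8.39% of all) and the Tead motif GGAATG in 2 (12.9% of all), among them the Dlx5 window. No region held the Dlx and homeodomain motif TAATTA, found in 2.03% of all. None of the 7 motifs lies within another. A match describes the letters of a window and is not evidence of binding. The windows of the 41 regions had a median GC content of 62.5%, beside 53.5% over all regions. The motif shares were not matched for this difference, so they cannot be read as an excess or a lack of a motif beyond base composition.

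All 9 genes had at least 1 Sox2-EGFP+ region, as did 76.6% of 22225 protein-coding genes, but they differed in number. Pax2 had 17, more than 98.4% of genes, followed by Tbx1 with 6, Dlx5, Dlx6 and Gbx2 with 4 each, Hmx1 with 3, and Pax8, Hmx2 and Hmx3 with 1 each. The peaks of the 9 genes numbered 4 and 0 in the E12 lists, 42 and 16 in the E14.5 Sox2-EGFP+ lists, and 29 and 39 in the E16 Sox2-EGFP+ lists, for replicates 1 and 2. In the Sox2-EGFP- lists they numbered 11 at E14.5 and 8 and 8 at E16. Counts in Sox2-EGFP+ lists followed list length. Relative to length, the genes had 2.9 and 0 peaks per 10000 at E12, 6.34 and 6.98 at E14.5 and 7.38 and 5.93 at E16 in Sox2-EGFP+ lists, and 4.73, 3.36 and 3.35 in the Sox2-EGFP- lists. Reduced to the 7577 highest peaks, the length of the shortest, no list held a peak of the genes, so the rates could not be compared at equal length. Of the lists with 22962 to 23899 peaks, which differ little in length, the Sox2-EGFP+ list had 6.98 and the 3 Sox2-EGFP- lists 3.35 to 4.73.

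**Figure D2:**
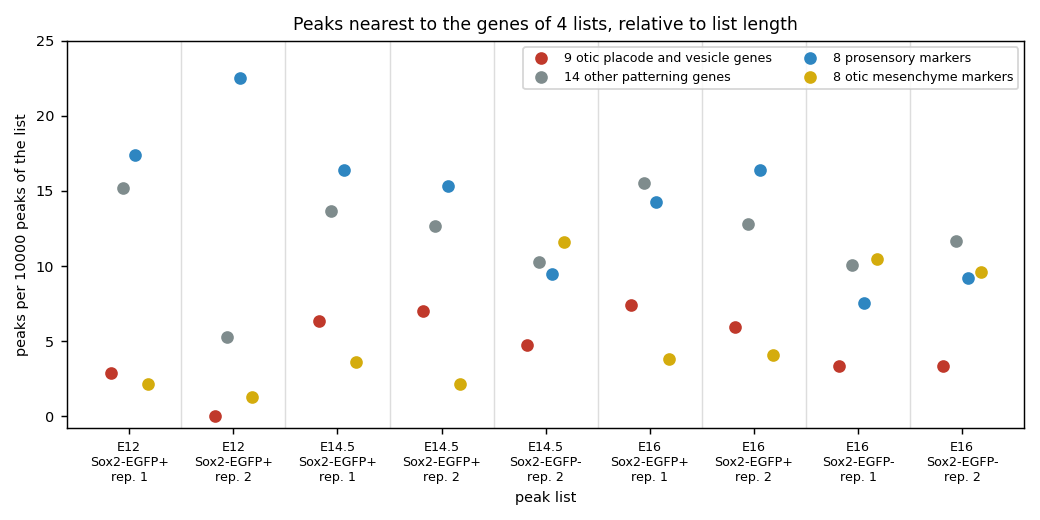
Peaks nearest to the genes of 4 gene lists per 10000 peaks of each peak list (vertical axis), for the 9 peak lists (horizontal axis). The red points of the 9 genes lie between 5.93 and 7.38 in the 4 later Sox2-EGFP+ lists and at 2.9 and 0 at E12, while the prosensory markers in blue stand at 17.4 and 22.5 at E12.

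At E12, 4 of the 41 Sox2-EGFP+ regions of the 9 genes had a peak, beside 21.3% of all 65452 Sox2-EGFP+ regions. The same 4 had a peak at every stage, beside 20.8% of all. They belonged to Dlx5 (the start site), Gbx2 (35.3 kb upstream) and Pax2 (35.7 and 9.27 kb upstream), so that 3 of the 9 genes had such a region, beside 46.3% of all genes. All 4 rested on E12 replicate 1, and without this list the count was 0, beside 10.9% of all. With the 3 libraries of contradictory tag left out it was 4, beside 20% of all. With only peaks of a −log10 q of at least 5 it was 0 of 40, beside 12.4% of all. A missing peak was not read as closed chromatin, since the E12 lists are the shortest, and fewer cells with an accessible site and less accessibility per cell cannot be told apart in pooled cells.

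At the later stages, 41 of the 41 regions had an E14.5 peak (99.8% of all Sox2-EGFP+ regions), all of them in replicate 1, and 38 an E16 peak (98.9% of all). Those with a peak in E14.5 replicate 2 numbered 13, or 30.2% of the 43 regions, beside 30.3% of all regions. Those with a peak in E16 replicate 1, the E16 Sox2-EGFP+ list whose tag fits its title, numbered 24, or 55.8%, beside 53.6%. The 3 regions without an E16 peak, 3.42 kb downstream of the Dlx5 start, 20.3 kb downstream of the Hmx1 start and 3.85 kb upstream of the Tbx1 start, had peaks in both E14.5 Sox2-EGFP+ lists alone. The deposited lists hold only peaks that overlap a peak of another list of the same cell type, so each of the 41 regions had at least 2 Sox2-EGFP+ lists. Of these, 14 had peaks in only the 2 longest lists, E14.5 replicate 1 and E16 replicate 2, beside 39.4% of all. Regions with a peak in all 4 later Sox2-EGFP+ lists numbered 9, and 1 of these, the Dlx5 start, had an E12 peak, beside 61.8% of all 18988 such regions. Without the 3 libraries of contradictory tag it was 2 of 10, beside 61.4% of all, and without E14.5 replicate 2 it was 3 of 21, beside 37.7% of all. This last comparison was chosen after the data were seen. None of these shares was split by distance from a start site. Of the 12557 regions with a peak in E12 replicate 1, 8087 lay within 1 kb of a start site, beside 21.6% of all regions. Of the 9 regions in all 4 later Sox2-EGFP+ lists, only the Dlx5, Dlx6 and Pax2 starts did.

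**Figure D3:**
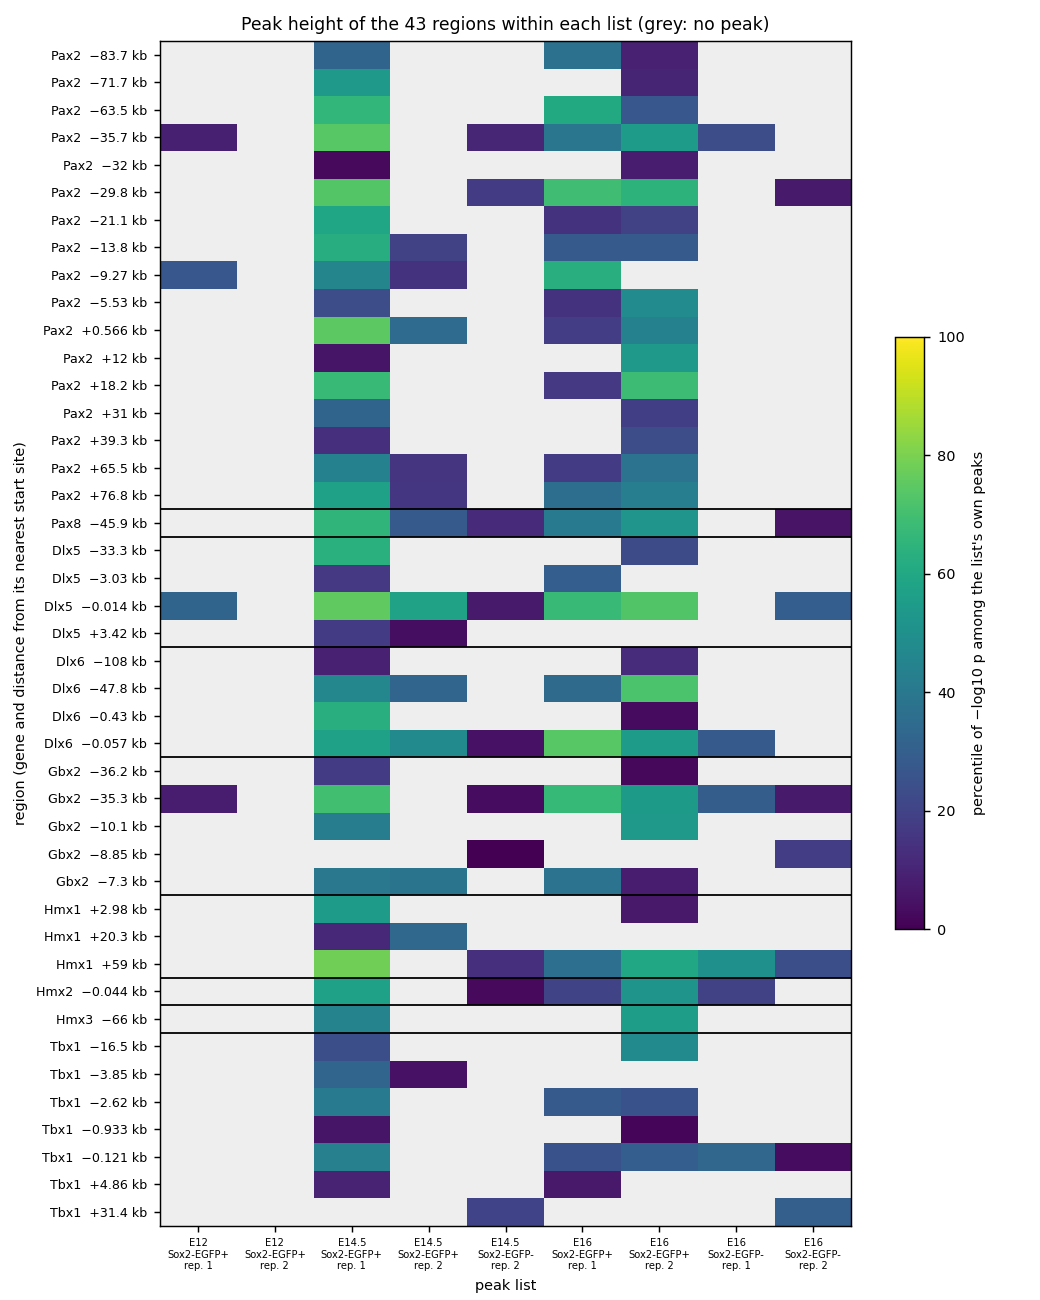
Height of the peaks in the 43 regions of the 9 genes (rows, by gene and distance of the summit from the nearest start site) in each of the 9 peak lists (columns). The colour is the percentile of −log10 p among the list's own peaks and grey means no peak, and the column of E12 replicate 2 is grey throughout.

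Pax2, a paired-domain factor needed for outgrowth of the cochlear duct, had the most extensive set of regions, from 83.7 kb upstream to 76.8 kb downstream of its start sites. No Sox2-EGFP- peak lay in 15 of its 17 regions, beside 69.5% of all Sox2-EGFP+ regions, and 5 of the 17 had peaks in the 2 longest lists alone. The region at its start (chr19:44830066-44831797, with the summit in an annotated UTR) had a peak in all 4 later Sox2-EGFP+ lists, and in neither E12 list nor any Sox2-EGFP- list. Its fold enrichment, which compares the reads stacked at the summit with those of its surroundings, was 5.61 and 3.27 at E14.5 and 3.33 and 3.96 at E16. The replicates of E14.5 lay farther apart than the stages.

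Of the 16 other Pax2 regions, those 13.8 kb upstream, 65.5 kb downstream (intron) and 76.8 kb downstream (UTR) also had peaks in all 4 later Sox2-EGFP+ lists. The regions with an E12 peak were less regular across the later lists. That 35.7 kb upstream (chr19:44794175-44795191, intergenic) had fold enrichments of 4.46 in E12 replicate 1, 9.08 in E14.5 replicate 1, and 5.19 and 5.75 at E16, and of 3.29 and 5.09 in E14.5 Sox2-EGFP- and E16 Sox2-EGFP- replicate 1. The region 9.27 kb upstream (chr19:44821034-44821502, intergenic) had 4.64 in E12 replicate 1, 5.25 and 3.12 at E14.5 and 6.32 in E16 replicate 1, and no Sox2-EGFP- peak. Neither had a peak in every later Sox2-EGFP+ list. The highest fold enrichment of the 17 Pax2 regions was 12.5, 63.5 kb upstream in E14.5 replicate 1. The Pax2 regions other than the start were named after their values were seen, except that 35.7 kb upstream.

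**Figure D4:**
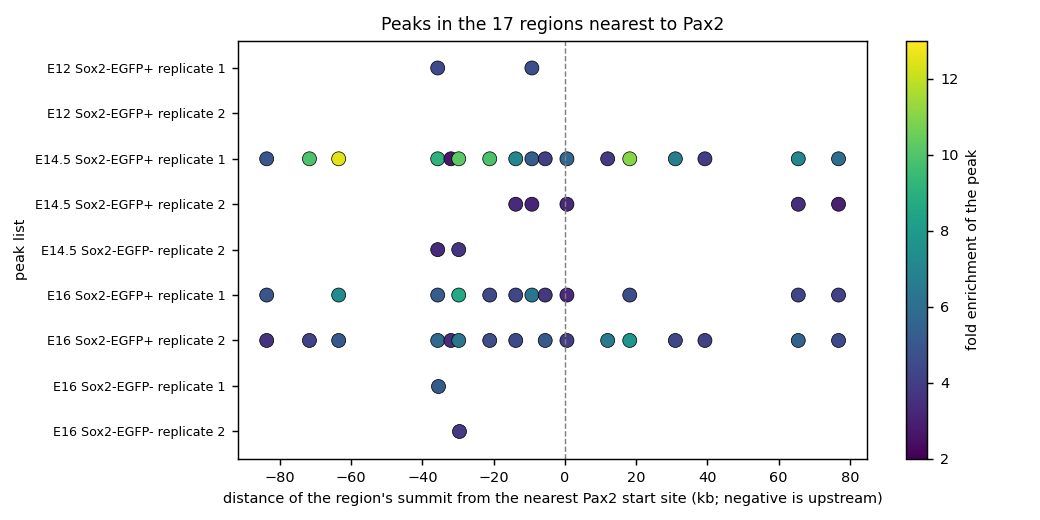
Peaks in the 17 Pax2 regions by distance of the summit from the nearest Pax2 start site (horizontal axis, kb) and peak list (vertical axis). Colour is the fold enrichment of the peak, and the 3 Sox2-EGFP- lists hold peaks only 35.7 and 29.8 kb upstream.

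Pax8, the paired-domain partner of Pax2 in the earliest placode, had a single intergenic region 45.9 kb upstream of its start sites (chr2:24376858-24377596) and none within 1 kb. Fold enrichment there was 10 and 4.04 at E14.5 and 5.65 and 5.84 at E16 in Sox2-EGFP+ lists, and 3.79 at E14.5 and 4.05 in E16 replicate 2 in Sox2-EGFP- lists. Neither E12 list nor E16 Sox2-EGFP- replicate 1 had a peak. The Sox2-EGFP+ values lay above the Sox2-EGFP- value in each stage. Over the 16587 regions in which at most 1 of the 7 later lists lacked a peak, the values leaned the same way. Their median log2 difference was 0.355 without scaling, but not every list shared this shift. At E14.5, median fold enrichment within 1 kb of start sites was 9.29 and 4.77 in Sox2-EGFP+ lists and 4.88 in the Sox2-EGFP- list. At E16 it was 8.06 and 7.53 in Sox2-EGFP+ lists, and 8.13 and 5.83 in Sox2-EGFP- lists. After scaling, the Pax8 difference was 0.18 (SE 0.18) and was not called.

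Dlx5 and Dlx6 are neighbouring homeodomain genes transcribed from opposite strands that act in vestibular morphogenesis. The Dlx5 start (chr6:6831391-6832335, summit 14 bp upstream) was the region of the 9 genes with peaks in the most Sox2-EGFP+ lists, 5 of 6. Its fold enrichment was 4.85 in E12 replicate 1, 7.52 and 4.15 at E14.5, and 5.98 and 6.28 at E16, and in Sox2-EGFP- lists 3.06 at E14.5 and 4.48 in E16 replicate 2. The Dlx6 start (chr6:6813317-6814252, summit in a coding exon) had 6.31 and 4.35 at E14.5 and 7.32 and 5.71 at E16 in Sox2-EGFP+ lists, 3.16 and 5.19 in E14.5 Sox2-EGFP- and E16 Sox2-EGFP- replicate 1, and no E12 peak. Both starts thus had peaks in both cell types. Each stage's Sox2-EGFP+ values lay above its Sox2-EGFP- values before scaling, and neither difference was called after it (0.25 and 0.28).

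The intergenic region 47.8 kb upstream of Dlx6 (chr6:6765188-6765833) was found in Sox2-EGFP+ lists only, at 9.92 and 4.69 at E14.5 and 5.47 and 8.47 at E16. A second Dlx6 start region (430 bp upstream, chr6:6812640-6813026) had 6.74 and 3.41 in the 2 longest lists alone. An otic element of the Dlx genes in Slc25a13 that the study lists overlapped a region (chr6:6008470-6008977) that by distance belongs to Slc25a13 and so is not among the 43. It had peaks in all 6 Sox2-EGFP+ lists, with fold enrichments of 5.06 and 6.04 at E12, 9.63 and 6.31 at E14.5 and 5.87 and 8.7 at E16, and none in Sox2-EGFP- lists.

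Gbx2, a homeodomain factor of the dorsomedial vesicle and the endolymphatic duct, had no region within 1 kb of its start. The region 35.3 kb upstream (chr1:91864504-91865466, in Asb18) had peaks in both cell types, at 4.27 in E12 replicate 1, 9.31 in E14.5 replicate 1 and 7.17 and 5.9 at E16 in Sox2-EGFP+ lists, and 2.97, 5.28 and 3.77 in the Sox2-EGFP- lists. E14.5 Sox2-EGFP+ replicate 2 had no peak there. The region 7.3 kb upstream (chr1:91836329-91837323) was found in the 4 later Sox2-EGFP+ lists alone, at 6.25, 4.18, 4.5 and 3.69. In contrast, a region 8.85 kb upstream (chr1:91838554-91838828) had peaks of 2.75 and 4.28 in E14.5 Sox2-EGFP- and E16 Sox2-EGFP- replicate 2 only.

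**Figure D5:**
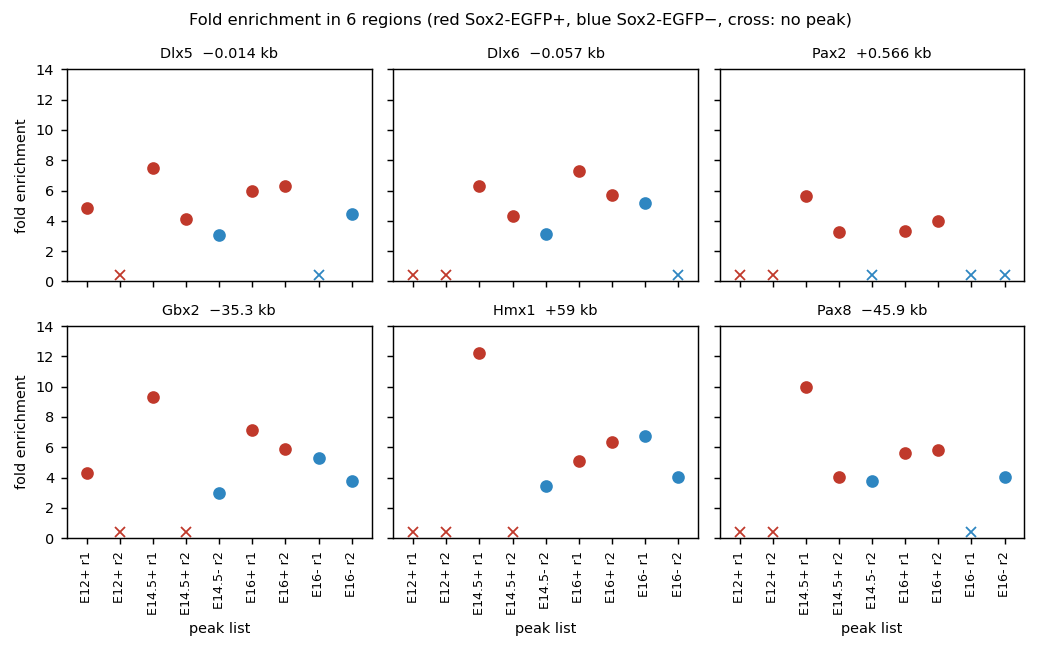
Fold enrichment (vertical axis) in 6 regions for each peak list (horizontal axis), with Sox2-EGFP+ lists in red, Sox2-EGFP- lists in blue and a cross where a list has no peak. Panels are named by gene and distance from the nearest start site, and only the Dlx5 start and the Gbx2 region have an E12 point.

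Hmx1, known for eye and outer ear development, Hmx2 and Hmx3 encode related homeodomain factors, of which Hmx2 and Hmx3 are needed for the vestibular apparatus. Hmx2 had a single region, at its start (chr7:138697233-138698123, summit 44 bp upstream), with 7.62 in E14.5 replicate 1 and 3.98 and 5.81 at E16 in Sox2-EGFP+ lists, and 2.94 and 4.78 in E14.5 Sox2-EGFP- and E16 Sox2-EGFP- replicate 1. Hmx3 had a single region too, 66 kb upstream and in the 2 longest lists alone, at 9.49 and 7.01, and no peak near its start. At E16 the Hmx2 values overlapped between the cell types. For Hmx1, the region 59 kb downstream (chr5:35790456-35791165, intergenic) had 12.2 in E14.5 replicate 1 and 5.07 and 6.33 at E16, and 3.43, 6.72 and 4.03 in the Sox2-EGFP- lists. These E16 values overlapped too. The Hmx1 otic element that the study lists overlapped no region, and the nearest lay 3627 bp away and belonged to Cpz.

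The start of Hmx1 lies beside that of E130018O15Rik, and a joined region there (chr5:35731005-35731824) belonged to that gene by its highest summit. It held 3 of the 157 peaks, which lay nearest to Hmx1, in E16 Sox2-EGFP+ replicates 1 and 2 (3.64 and 4.7) and E16 Sox2-EGFP- replicate 1 (5.23). With this region, 6 of the 9 genes had a Sox2-EGFP+ region within 1 kb of a start site, beside 64.2% of all genes, and 1, Dlx5, had one at E12, beside 42.2%. Of the 43 regions, 7 lay within 1 kb, beside 21.6% of all regions. Pax8, Gbx2 and Hmx3 had none.

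Tbx1, a T-box factor of otic epithelium and periotic mesenchyme, had 7 regions and no E12 peak. Its start (chr16:18588062-18588448) had 4.54 in E14.5 replicate 1 and 3.42 and 3.82 at E16 in Sox2-EGFP+ lists, and 4.07 and 2.97 in the E16 Sox2-EGFP- lists, so that the cell types overlapped. A second start region (933 bp upstream, chr16:18588737-18589146) had 2.72 and 2.87 in the 2 longest lists alone. The region 2.62 kb upstream (chr16:18590426-18590889) had 4.51 in E14.5 replicate 1 and 3.62 and 3.7 at E16, without a Sox2-EGFP- peak. An intron of Gnb1l 31.4 kb downstream (chr16:18555328-18555712) had 3.28 and 4.66 in E14.5 Sox2-EGFP- and E16 Sox2-EGFP- replicate 2 alone.

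Between the cell types, 32 of the 41 Sox2-EGFP+ regions had no Sox2-EGFP- peak, beside 69.5% of all, and 33 without the 3 libraries of contradictory tag, beside 71.6%. With the nearest start site taken among all transcripts it was 15 of 21, beside the same 69.5%. Only Sox2-EGFP- peaks were found in 2 of 43 regions, the Gbx2 and Tbx1 regions named above, beside 5.63% of all regions.

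The 9 genes had no peak among the highest of any list. The best rank among their peaks was 9336, in E12 replicate 1, and the highest percentile of −log10 p was 78.2, in E14.5 replicate 1, so none stood among the 7577 highest peaks of a list, the length of the shortest. At start sites, the members' median percentile was 57.3 in E14.5 Sox2-EGFP+ replicate 1 and 44 in E16 Sox2-EGFP+ replicate 2, beside 83.2 and 84.4 for all regions within 1 kb. It was 32.4 in E12 replicate 1 (1 region), 47.9 in E14.5 Sox2-EGFP+ replicate 2 and 25 in E16 Sox2-EGFP+ replicate 1, beside 59, 67.3 and 79.5. In Sox2-EGFP- lists it was 4.88 at E14.5 and 28.5 and 16.6 at E16, beside 69.1, 71.2 and 70.1. The start sites of the genes thus stood below the median of all start sites in each of these lists. Farther away, it was 43.1 and 33.3, beside 42 and 42.9. In the other Sox2-EGFP+ lists that hold farther regions of the genes, their median was 8.67 in E12 replicate 1, 17.7 in E14.5 Sox2-EGFP+ replicate 2 and 36 in E16 Sox2-EGFP+ replicate 1, beside 42.4, 38 and 37.4. In Sox2-EGFP- lists they stood at 12.2 at E14.5 and 29.4 and 12.8 at E16, beside 34.8, 31.9 and 35.3.

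The planned limma fits of log2 fold enrichment needed a peak in every list compared, and with all lists in, no region of the 9 genes met this. With 1 list left out in turn, as planned, they held 5 regions of the genes in all. Each was in a cell type fit, and the Dlx5 start was in stage fits too. Of these regions limma called 0, and 1, the Gbx2 region 35.3 kb upstream, had an unadjusted p under 0.05. In the fit that held it, without E14.5 Sox2-EGFP+ replicate 2, 2864 of all 15315 regions had such a p. Over the 5719 regions with a peak in all 6 Sox2-EGFP+ lists, 0% had an adjusted p under 0.05 between any 2 stages, with 493, 734 and 63 regions at an unadjusted p under 0.05 for E14.5 against E12, E16 against E12 and E16 against E14.5. Over the 12714 regions with a peak in all 7 E14.5 and E16 lists, 0.385% passed between Sox2-EGFP+ and Sox2-EGFP-, from 0 regions (without E14.5 Sox2-EGFP- or without E16 Sox2-EGFP+ replicate 2) to 398 (without E14.5 Sox2-EGFP+ replicate 2) as lists were left out. Fits of all lists that hold some of the genes were then added after the data were seen.

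In a limma fit of E16 against E14.5 over the 4 later Sox2-EGFP+ lists, 0 of 9 regions of the genes and 0% of 18988 regions passed, with 0 of the 9 and 465 of all at an unadjusted p under 0.05. Without E14.5 replicate 1, 48 regions passed, none of them of the 9 genes. The log2 differences of the 9 regions ran from −0.48 (SE 0.27) 7.3 kb upstream of Gbx2 to 0.07 (SE 0.27) at the Dlx6 start, each with an adjusted p of 1. Of the 9, 1 was above 0, with a median of −0.16, beside 0.0206 over all regions. Without scaling it was 3 of 9, with a median of −0.03 beside 0.204, and on −log10 p 2 of 9. With E14.5 replicate 2 left out it was 9 of 21, with a median of −0.04, and with E16 replicate 2 left out 3 of 10. The Pax2 start had −0.35 (SE 0.25), and −0.83 (SE 0.31) on −log10 p, where it alone of the 9 had an unadjusted p under 0.05 (limma p 0.0206, adjusted p 1). Of all 18988 regions, 835 had such a p on −log10 p. The Dlx5 start had −0.05 (SE 0.25), and 0.13 without scaling. Allowing 1 list of the 6 to lack a peak, the limma fit held the Dlx5 start, with log2 differences of 0.01 (SE 0.26, adjusted p 0.994) for E14.5 against E12, −0.08 (SE 0.26, adjusted p 0.926) for E16 against E12 and −0.09 (SE 0.21, adjusted p 1) for E16 against E14.5, and 0% of 11834 regions passed, with 1019, 1373 and 193 at an unadjusted p under 0.05. E12 replicate 2 was left out of that region's fit.

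Allowing 1 of the 7 later lists to lack a peak, 0 of 5 regions of the genes passed between the cell types, beside 0.76% of 16587 regions. An unadjusted p under 0.05 was held by 1 of the 5 and by 2091 of all. All 5 log2 differences were above 0, that is higher in Sox2-EGFP+ lists, with a median of 0.25, beside -0.0205 over all regions. With the replicate numbers of each stage as a block, which follows the pairing of the E16 cells, 4 of 5 were above 0, with a median of 0.29, and 0 of 5 passed, beside 0.838% of all. The Hmx1 region 59 kb downstream then had −0.08 (SE 0.21). Without E14.5 Sox2-EGFP+ replicate 1, 4 of 5 were above 0. Without the E14.5 Sox2-EGFP- list it was 4 of 6, with a median of 0.07, and without E16 Sox2-EGFP- replicate 1 the median was 0.38. Without scaling the median was 0.66, where all regions had 0.355. With median centring it was 0.14, beside −0.0465 over all regions, and on −log10 p 0.55, beside −0.0248. Without the 3 libraries of contradictory tag, no E16 Sox2-EGFP- list is at hand for this fit. The Gbx2 region 35.3 kb upstream had 0.44 (SE 0.18, limma adjusted p 0.308). Each of its 3 later Sox2-EGFP+ values exceeded each of its 3 Sox2-EGFP- values before scaling. Both the difference and this order leave out E14.5 Sox2-EGFP+ replicate 2, which had no peak there, while all 3 Sox2-EGFP- lists had one. With the block the Gbx2 region had 0.29 (SE 0.19), again without that list. Over other scalings, another measure of height, the block and the planned fit without that list, its adjusted p ran from 0.136 to 0.584. The Dlx6 start had 0.28 (SE 0.19), the Dlx5 start 0.25 (SE 0.19), the Hmx1 region 59 kb downstream 0.22 (SE 0.2) and the Pax8 region 0.18 (SE 0.18), with limma adjusted p between 0.594 and 0.731. With the block, the Dlx6 start had 0.48 (SE 0.19, limma adjusted p 0.297), the Dlx5 start 0.3 (SE 0.2) and the Pax8 region 0.11 (SE 0.19). The Dlx5 start had 0.14 (SE 0.19) with median centring and 0.73 (SE 0.27, limma adjusted p 0.189) on −log10 p. On −log10 p the Hmx1 region had 0.04 (SE 0.3). There the Dlx5 start alone of the 5 had an unadjusted p under 0.05, beside 2654 of all 16587 regions.

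As background among related genes, 14 other patterning genes (Pax5, Foxi3, Dlx1, Dlx2, Dlx3, Dlx4, Otx1, Otx2, Lmx1a, Msx1, Msx2, Sall4, Emx2 and Gbx1) had 89 Sox2-EGFP+ regions, 20 of them with a peak at every stage (22.5%), against 4 of 41 for the 9 genes. Lmx1a, a factor of the dorsal and nonsensory vesicle, had 6 of its 17 at every stage and Emx2 1 of 12. Of the prosensory markers (Sox2, Jag1, Isl1, Gata3, Fgf20, Lfng, Hey1 and Hey2), 25 of 106 regions had a peak at every stage.

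Among markers of other cells, those of otic mesenchyme stood higher in each Sox2-EGFP- list than in any Sox2-EGFP+ list. Peaks of the 8 genes stood at 2.18 and 1.32 per 10000 at E12, 3.62 and 2.18 at E14.5 and 3.82 and 4.1 at E16 in Sox2-EGFP+ lists, and at 11.6, 10.5 and 9.64 in Sox2-EGFP- lists. Each of the 8 had a region, and Tbx18 had the most, 9. Of 5 macrophage markers 4 had a region, with the most, 3, at Ptprc and 0 at Cd68. Macrophage peaks stood at 0.725 and 0 per 10000 at E12, 1.06 and 0.436 at E14.5 and 1.02 and 1.06 at E16 in Sox2-EGFP+ lists, and at 0 in the 3 Sox2-EGFP- lists. Over the 9 lists, glial markers had 1.26 to 3.49, neuronal markers 1.68 to 5.3 and endothelial markers 1.45 to 5.04 per 10000. Markers of the nonsensory roof, 2 of which (Otx2 and Lmx1a) are also among the 14 patterning genes, had 1.32 to 4.38. The part of these cells in the counts of the 9 genes was not tested.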

How the data were processed

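The authors ran Trim Galore, Bowtie2 on mm9, Picard, SAMtools and MACS2 on each library, and with BEDOPS left out peaks that no other library of the cell type overlapped. Each deposited fold enrichment is a ratio made by the authors within a library. The deposited −log10 p and −log10 q values came from the authors' MACS2 run. The deposited score equals 10 times −log10 q without its decimals, save in 6 of 286921 peaks, and was not used. The lists hold no reads, so they give no depth and the authors' count test was not repeated. Read totals that the study tabulates were not used here.

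Peaks on chromosomes 1 to 19, X and Y were joined within 100 bp (69354 regions, also by bedtools 2.31.1). Each region went to the nearest of 51720 protein-coding transcripts of GENCODE vM1 from the summit of its peak with the highest −log10 p. Readthrough transcripts were left out where summits were placed in exons or introns. A stage or cell type counted where at least 1 of its lists had a peak. Log2 fold enrichments of regions with a peak in every list compared were quantile-scaled and fitted with limma 3.58.1 (R 4.3.3), two-sided, with Benjamini-Hochberg adjustment over all regions tested and a threshold of 0.05. Stage was the term of the 3 stage fits, and cell type and stage those of the cell type fit. The fits were first tested on simulated data, where a limit on false calls was required only without scaling, not with the quantile scaling of the main fits. Python 3.11.15, NumPy 2.4.6, pandas 2.3.3 and matplotlib 3.10.9 were used.

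Named regions were those within 1 kb of a start site, per gene the farther region in the most Sox2-EGFP+ lists, regions in Sox2-EGFP- lists alone or in all 6 Sox2-EGFP+ lists, regions that pass a fit, and listed otic elements near Hmx1 and the Dlx genes. Others were named after their values were seen. Members and lists were chosen with earlier results of these data known. Of the lists, 1 other patterning gene and 1 motif are not reported here. Cells of both E16 types were sorted side by side, so their replicate numbers pair, and their replicate differences correlated at r = 0.164 across 16391 regions, which are not independent replicates.

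Alternatives were a −log10 q of at least 5, joining at 0 bp, lists of equal length, all transcripts, a limit of 100 kb, 50% cover of a region, other scalings, −log10 p as the height, a replicate block, batch as a term, E12 lists in the cell type fit, and leaving out lists. Chosen after seeing the data were fits in which 1 list may lack a peak, also with a replicate block, a fit and a count over the 4 later Sox2-EGFP+ lists, and leaving out the 2 longest lists.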

Additional observations from a re-analysis of the deposited data

How the results depend on the processing

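The count of regions with a peak at every stage (4) fell to 0 with a −log10 q of at least 5 and with lists of equal length, where the 9 genes have no peak, to 1 with 50% cover and to 2 of 27 without the 2 longest lists (chosen after seeing the data). The share of all regions, 20.8% in the main count, moved too. It was 12.4% with a −log10 q of at least 5, 44.3% with equal lists, 5.24% with 50% cover and 29.6% without the 2 longest lists. The count of the 9 genes ran from 0 (without E12 replicate 1, beside 10.9% of all) to 4 as each list was left out. Without E14.5 Sox2-EGFP+ replicate 1 it was 2, beside 18.1% of all. Regions without a Sox2-EGFP- peak (32) numbered 0 with equal lists, 15 of 21 with all transcripts and 18 of 27 without the 2 longest lists (beside 69.5% and 52.6% of all regions), and 32 to 32 as each list was left out, which the authors' filter on overlap between lists of a cell type fixes. The E12 count among regions of all later lists (1 of 9, beside 61.8% of all) was 0 of 3 with a −log10 q of at least 5 (50.2% of all). It was 0 of 0 with equal lists and 0 of 2 with 50% cover (28.2% of all), too few regions to say more. Without the 3 libraries of contradictory tag it was 2 of 10 (61.4% of all), as without the 2 longest lists (61.3% of all). As each list was left out, it ran from 0 of 9 (without E12 replicate 1, beside 35.1% of all) to 3 of 21 (without E14.5 Sox2-EGFP+ replicate 2, beside 37.7% of all). Without E16 Sox2-EGFP+ replicate 2 it was 2 of 10 (61.4% of all). All transcripts reassign 22 of the 43 regions to other genes, and the other alternatives count fewer peaks or lists. Without both E16 libraries numbered 1, sequenced in their own batch, the first 2 counts were 3 and 32.

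Over all regions, the stage fits called 0, except E16 against E12 with median centring (1). They ran from 0 to 2 (E14.5 against E12; 2 without E12 replicate 1), 0 to 7 (E16 against E12; 7 without E12 replicate 1) and 0 to 0 (E16 against E14.5) as each list was left out. The cell type fit (49) called 0 without scaling, 19 with median centring, 278 on −log10 p, 26 with a −log10 q of at least 5 and 126 where 1 list may lack a peak. It ran from 0 (without E14.5 Sox2-EGFP- or E16 Sox2-EGFP+ replicate 2) to 398 (without E14.5 Sox2-EGFP+ replicate 2), with 4, 23 and 24 without E16 Sox2-EGFP- replicate 1, E16 Sox2-EGFP- replicate 2 and E16 Sox2-EGFP+ replicate 1. Where 1 list may lack a peak, the calls over all regions (126) were 0 without scaling and 567 on −log10 p. They ran from 0 (without E14.5 Sox2-EGFP- or E16 Sox2-EGFP- replicate 1) to 505 (without E14.5 Sox2-EGFP+ replicate 2). A stage left with 1 list was assumed to vary like the others. Without scaling, the median log2 difference of all regions was 0.308, 0.578 and 0.261 in the stage fits and 0.331 in the cell type fit, and with scaling near 0. With the replicate number as a block, the cell type fit called 105 and E16 against E12 8, and the other stage fits 0. Where 1 list may lack a peak, the block turned the sign of the uncalled Hmx1 region 59 kb downstream (-0.08). Stages share only a replicate number, and their replicate differences correlated at 0.0667, -0.032 and -0.307 across 5719 regions. In the added cell type fit and the added fit over the 4 later Sox2-EGFP+ lists, 0 regions of the 9 genes were called without scaling, with median centring and on −log10 p. The added cell type fit also called 0 of them with the replicate block and as each list was left out. Other alternatives were not run on these fits, and none was run on the added stage fit that held the Dlx5 start. Among the uncalled E16 against E14.5 log2 differences over the 4 later Sox2-EGFP+ lists, the sign turned for the Dlx5 start (0.13 without scaling), the Pax2 region 76.8 kb downstream (0.04 without scaling) and the Dlx6 region 47.8 kb upstream (0.17 on −log10 p). The cause was not tested. The short E12 lists limit what can be read from their missing peaks.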

Other observations

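Distance alone placed many of these regions. With non-coding transcripts included, 22 of the 43 regions lay nearest to another start site, 10 of 17 for Pax2, 4 of 7 for Tbx1, 3 of 3 for Hmx1, 2 of 4 for Dlx6, 1 of 4 for Dlx5 and the only regions of Hmx3 and Pax8. All 5 regions of Gbx2 and the region of Hmx2 had the same gene. For Pax2, 5 upstream regions lay nearest to Gm17704, and for Hmx1 all 3 lay nearest to RP24-276N7.2.

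Of the 18 regions with at least 8 CG pairs away from protein-coding start sites, 10 were at Pax2. Gbx2 and Tbx1 had 3 each, and Hmx1 and Pax8 had 1 each. The Pax2 regions 71.7, 29.8 and 9.27 kb upstream held 26, 25 and 29 CG pairs in 200 bases, and the Tbx1 region 4.86 kb downstream, in a coding exon, held 32.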
